A study of Mus musculus with 9 samples.

Results

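Marrow cells that carry an induced CBFB-MYH11 fusion were compared with the same population of wild-type mice. The comparison rests on 6 of the 9 libraries of the study, taken by their labelled genotype and described across all genes. In the knock-in group (KI, 3 libraries) the labels read Mx1-Cre, Cbfb+/56M, where 56M is a conditional knock-in allele of the fusion on 1 copy of Cbfb. In the wild-type group (WT, 3 libraries) the label names neither a Cre transgene nor a floxed allele. Both groups were C57BL/6, both had received pIpC, a double-stranded RNA that raises interferon, and both were enriched for c-KIT (CD117) with magnetic beads before total RNA was extracted. The Mx1 promoter that drives Cre answers to interferon in many cell types, so recombination is not restricted to blood cells, and effects of Cre and of the fusion cannot be told apart in this design. The labels give no age and do not give the number of mice in each group. A p-value therefore reflects no more than the spread among libraries, estimated over all 9 of the study. In RNA from a whole population, fewer cells of a type and less RNA per cell cannot be told apart.

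Core binding factor is a transcription factor made of a DNA-binding RUNX protein and the non-binding partner CBFB, which raises the affinity of RUNX for DNA. It is required for blood stem cells to arise and for granulocytes, lymphocytes and platelets to mature. The inversion of chromosome 16 in human acute myeloid leukaemia joins CBFB to MYH11, a smooth muscle myosin heavy chain, and the fusion protein binds RUNX proteins and interferes with their function. In mice the fusion leads to abnormal myeloid progenitors before leukaemia appears.

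The deposited numbers, called values below, are read numbers per gene that, judged from their spacing, were scaled by 1 factor per library and rounded to whole numbers. They are not divided by gene length, so levels of different genes are not compared. Library totals were 43222301 to 46159426 in WT and 37716763 to 39002839 in KI. The top 10 genes by value made up 12.62% to 14.43% of a WT total and 4.658% to 5.083% of a KI total, and mitochondrial transcripts took 1.533% to 1.624% and 1.835% to 2.055%. Nuclear non-coding RNAs, of which 3 of 4 tested rose and none fell, took 0.02379% to 0.02907% in WT and 0.05934%, 0.1255% and 0.09182% in KI libraries 1, 2 and 3, and their part in the other differences was not tested. At the median gene, the squared difference between replicates of a group was 3.57 to 11.08 times that of counting alone. These ratios were taken on the scaled values, whose factors are not known, and are approximate. The highest ratios belonged to the pairs with KI library 2 (11.08 and 9.49, against 4.265 for KI libraries 1 and 3). KI library 2 lay farthest from the mean of its group in 51.06% of 11388 genes. In WT, library 1 lay farthest in 48.92% of 11072 genes. Its pairs gave ratios of 7.425 and 7.296, against 3.57 for WT libraries 2 and 3. The summed value of 4 progenitor markers (Kit, Cd34, Gata2 and Myb) was 21576 to 24826 in WT and 28398 to 33663 in KI, so the defining markers of the labelled population were present in each library. Of these, Cd34 and Gata2 rose and Kit and Myb fell, and without Gata2 the sum was 20621 to 23542 in WT and 14061 to 15528 in KI. The sum of 6 markers of maturing neutrophils (S100a8, S100a9, Ly6g, Camp, Ngp and Ltf), cells that have lost c-KIT, was 4006272 to 4947291 in WT and 126340 to 606811 in KI. The selected cells thus contained RNA of late granulocytes, and its part in the other differences was not tested.

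The 2 groups differed in most genes. Of 15997 genes tested with limma, 9429 (58.9%) passed an adjusted p of 0.05, 5084 of them higher in KI (31.8%) and 4345 lower (27.2%). These shares are the background for the gene groups described next. The median log2 fold change of all genes tested was 0.02, with 5% of genes below -1.58 and 5% above 2.4. Rises were more often large: 2314 genes rose at least 2-fold (14.5%) and 1348 fell at least 2-fold (8.43%), and at 16-fold or more the counts were 251 (1.57%) and 54 (0.338%). Scaled to the column total instead, 74.17% of the calls were higher in place of 53.92%, and the median of all genes moved to 0.25. Among 706 genes with a mean value of 10000 or more, 21.25% rose and 40.51% fell, whereas among 2830 genes between 300 and 1000 the shares were 36.93% and 26.18%. Protein-coding genes were higher in 35.0% and lower in 29.5% of 13110 tested, long non-coding RNA genes in 33.7% and 17.2% of 944, and genes of the X chromosome in 29.8% and 28.6% of 591.

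**Figure D1:**
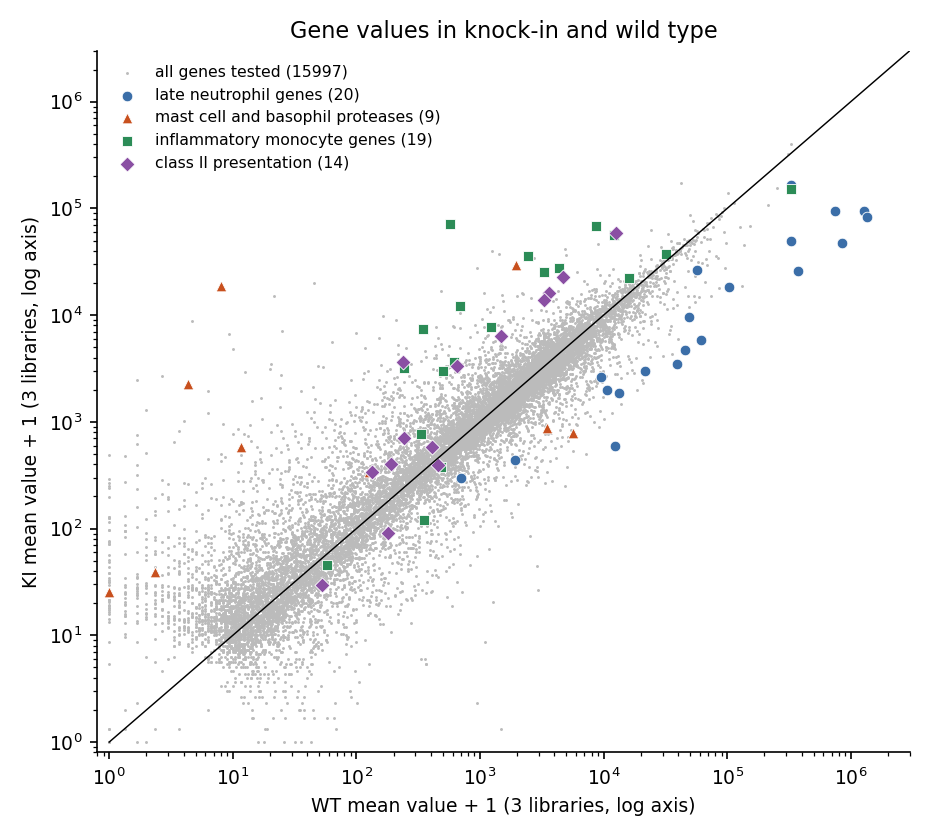
Mean value per gene in the 3 KI libraries against that in the 3 WT libraries, both plus 1 on log axes, for 15997 tested genes (grey). Coloured points are members of 4 lists, among which the 20 late neutrophil genes lie below the diagonal and 7 of 9 mast and basophil proteases above it.

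The largest gain in value among the genes named by rule was that of Psap, the precursor of the saposins, which help to degrade sphingolipids in lysosomes. Psap had WT values of 37620, 44168 and 44805 and KI values of 194679, 150399 and 178556, with no overlap (log2 fold change 2.04, SE 0.13, adjusted p = 2.55e-06). Fn1, which lies on chromosome 1 at 71585520 to 71653200 (GRCm38, GENCODE) and encodes the matrix protein fibronectin, had WT values of 622, 478 and 600 and KI values of 79972, 65084 and 70325. The lowest KI library was 105 times the highest WT library (log2 fold change 6.99, SE 0.27, adjusted p = 2.34e-07), and no other gene with a mean of at least 500 in both groups rose as far. The next gains in value belonged to F13a1, a transglutaminase of monocytes and platelets, Cd74, the class II invariant chain, and Mpeg1, a pore-forming protein of macrophages (log2 3.00, 2.29 and 2.21). Eef2, a translation elongation factor, Ly6e and Serinc3 also gained in value, with log2 folds of 0.46, 1.37 and 0.81. Losses in value were led by the neutrophil genes S100a9, Ngp, S100a8, Ltf, Camp and Lcn2. They also included Anxa1, the lipid- and calcium-binding protein annexin A1, with WT values of 123636, 134483 and 140293 and KI values of 15187, 32428 and 8454 (log2 fold change -3.04, SE 0.38, adjusted p = 0.000116). Of the actin cytoskeleton and its regulation, Actb, Tmsb4x and Arhgdib fell as well (-0.70, -1.18 and -1.58), and the direction of Actb turned to 0.81 with quantile normalisation.

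Genes of the core binding factor itself were examined first. Of 8 genes for its subunits, the fusion partner and the ETO family, 6 rose and 1 fell (median log2 1.13). Among the 6 was Myh11, the partner joined to Cbfb in the KI allele, with WT values of 8, 9 and 5. Its KI values were 219, 194 and 176 (log2 fold change 4.59), and how much of this comes from the allele was not tested. Runx1, the RUNX protein that the fusion binds in blood progenitors, had WT values of 3036, 2841 and 2929 and KI values of 6342, 5794 and 7589, and all KI libraries lay above WT (log2 fold change 1.16, SE 0.09, adjusted p = 6.04e-06). Runx2, best known from bone, rose by 1.10, and Runx3, best known from lymphoid cells, fell by 0.92 on the log2 scale. The widest change of the group was in Runx1t1 (chromosome 4, 13743436 to 13893649), which encodes ETO, the fusion partner of RUNX1 in another core binding factor leukaemia. Runx1t1 had WT values of 5, 5 and 6 and KI values of 2048, 1307 and 2429, so it was close to 0 in WT only (log2 fold change 8.21, SE 0.74, adjusted p = 1.69e-05). Its relative Cbfa2t3 (ETO2), a corepressor of erythroid and megakaryocytic genes, had WT values of 1274, 1133 and 1101 and KI values of 4549, 3668 and 5292 (log2 fold change 1.93, SE 0.12, adjusted p = 1.88e-06). Cbfb, which holds the altered allele, did not pass the test (log2 -0.06, adjusted p = 0.351), and was called lower with upper-quartile factors (adjusted p = 0.0462). Within 1 Mb of Cbfb on either side, 23 of 58 tested genes rose and 17 fell (68.97% called, against 58.9% of all genes), and within 5 Mb the share was 62.24% of 98.

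Of 8 transcription factors of mast cells and basophils 7 rose and 1 fell (median log2 0.87). Gata2, needed for stem cells and for mast cells, had WT values of 1284, 955 and 983 and KI values of 17177, 13086 and 18135 (log2 fold change 3.91, SE 0.19, adjusted p = 5.42e-07). Gata3, a factor of T cells and of the type 2 cytokine response, had WT values of 44, 46 and 27 and KI values of 1225, 941 and 1578, and the lowest KI library was 20.5 times the highest WT library (log2 fold change 4.97, SE 0.30, adjusted p = 1.73e-06). Mitf, the factor that drives mast cell and melanocyte genes, rose from 206 to 234 in WT to 1382 to 2225 in KI (log2 2.97). Gata1 rose less (0.88), while its cofactor Zfpm1 (FOG1) fell, with WT values of 3789, 3436 and 2859 and KI values of 1023, 936 and 766 (log2 fold change -1.89, SE 0.27, adjusted p = 0.000260). Gata1 and its cofactor thus changed in opposite directions, without overlap between the groups in either. Id2, an inhibitor of basic helix-loop-helix factors, was the 1 member that fell (log2 -1.62).

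Myeloid factors were split. Of 18 myeloid factors 9 rose and 7 fell (median log2 0.18), and several of those that fell act in neutrophil maturation. Cebpe, which switches on secondary granule genes, had WT values of 11324, 12743 and 11230 and KI values of 1147, 1906 and 611 (log2 fold change -3.41, SE 0.32, adjusted p = 2.05e-05). KI library 2 was the highest and KI library 3 the lowest of its group, and both lay far below WT. Gfi1, a repressor needed for neutrophils, fell by 1.74, Cebpd by 1.83 and Spi1 (PU.1), the factor of all myeloid cells, by 0.84 on the log2 scale. Cebpa fell by 0.39, a call lost with scaling to the column total (adjusted p = 0.1259). Nr4a1, a factor of non-classical monocytes, and Ets2 fell by 1.28 and 1.60. Factors of monocytes, macrophages and dendritic cells were also among those that rose. Klf4, needed for inflammatory monocytes, had WT values of 510, 488 and 497 and KI values of 2893, 2617 and 3401 (log2 fold change 2.56, SE 0.13, adjusted p = 7.18e-07). Zeb2, Irf8, Irf4 and Batf3 rose by 2.13, 0.98, 2.29 and 4.07.

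Stem cell factors were mixed, with 8 of 18 higher (5 without WT library 2) and 3 lower (median log2 0.55). Hlf, a factor of long-lived stem cells, had WT values of 682, 686 and 667 and KI values of 2973, 2509 and 3541 (log2 fold change 2.13, SE 0.13, adjusted p = 1.81e-06). Zfp521, a zinc finger protein of immature progenitors, rose from 56 to 81 in WT to 457 to 805 in KI (log2 3.32), and Bcl11a rose by 0.82. Erg, Fli1 and Myb, which maintain progenitors, fell by 0.65, 0.69 and 0.61. The homeobox genes Hoxa5, Hoxa7 and Hoxa9, raised in other types of acute myeloid leukaemia, gave -0.05, 0.04 and -0.11 and did not pass. Meis1, their cofactor, rose by 0.73 (adjusted p = 0.0144), a call lost without WT library 2 or KI library 1 or 3 (adjusted p 0.05116 to 0.0563). Mecom (EVI1) gave 0.73 and did not pass (adjusted p = 0.0707), but did in a fit of the 6 WT and KI libraries and by column total (adjusted p = 0.0199 and 0.0267).

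Growth factor receptors changed in both directions. Of 17 tested, 7 rose and 7 fell, or 4 fell when scaled to the column total (median log2 0.16), yet the summed value of the list took 0.1048% to 0.1175% of the total in WT and 0.3002% to 0.4256% in KI. Csf1r, the receptor that directs monocytes and macrophages, had WT values of 3843, 4359 and 4758 and KI values of 31256, 23566 and 28645 (log2 fold change 2.68, SE 0.13, adjusted p = 5.38e-07). Csf2rb, the shared beta chain of the receptors for IL-3, IL-5 and GM-CSF, had WT values of 8581, 9328 and 9212 and KI values of 45200, 38181 and 56935 (log2 fold change 2.35, SE 0.14, adjusted p = 1.94e-06). Its near copy Csf2rb2, the mouse-specific beta chain for IL-3, rose by 4.67, and reads could be divided between these similar genes in counting. Flt3, a receptor of early progenitors, and Il7r, a receptor of lymphoid progenitors, rose by 1.59 and 1.81. Tek, an angiopoietin receptor of endothelium and stem cells, had WT values of 79, 41 and 62 and KI values of 1663, 1011 and 1604 (log2 fold change 4.55, SE 0.27, adjusted p = 1.63e-06), while the related Tie1 fell by 1.79. Csf3r, the receptor of G-CSF and neutrophils, fell by 0.91 and Epor by 0.49. The call of Epor was lost when scaled to the column total (adjusted p = 0.07187). Kit, the receptor used for the selection, fell by 1.09.

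Receptors of interleukins and related cytokines were split as well, with 11 of 24 higher and 9 lower (median log2 0.18). Il9r, the receptor of a growth factor of mast cells, had WT values of 26, 20 and 26 and KI values of 6566, 5433 and 9210 (log2 fold change 8.12, SE 0.35, adjusted p = 3.94e-07). The lowest KI library was 209 times the highest WT library. Il1rl1, the receptor of IL-33, had WT values of 1308, 1286 and 1122 and KI values of 44037, 28151 and 48086 (log2 fold change 4.98, SE 0.26, adjusted p = 8.77e-07), with KI library 2 the lowest of its group. Il6st, the signalling chain gp130 of the IL-6 family, and Il6ra, its partner, rose by 3.17 and 1.54, and Il10ra rose by 2.03. Il1r2, a decoy receptor of IL-1 on neutrophils, and the IL-18 receptor chains Il18r1 and Il18rap fell (-2.78, -1.91 and -2.35).

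**Figure D2:**
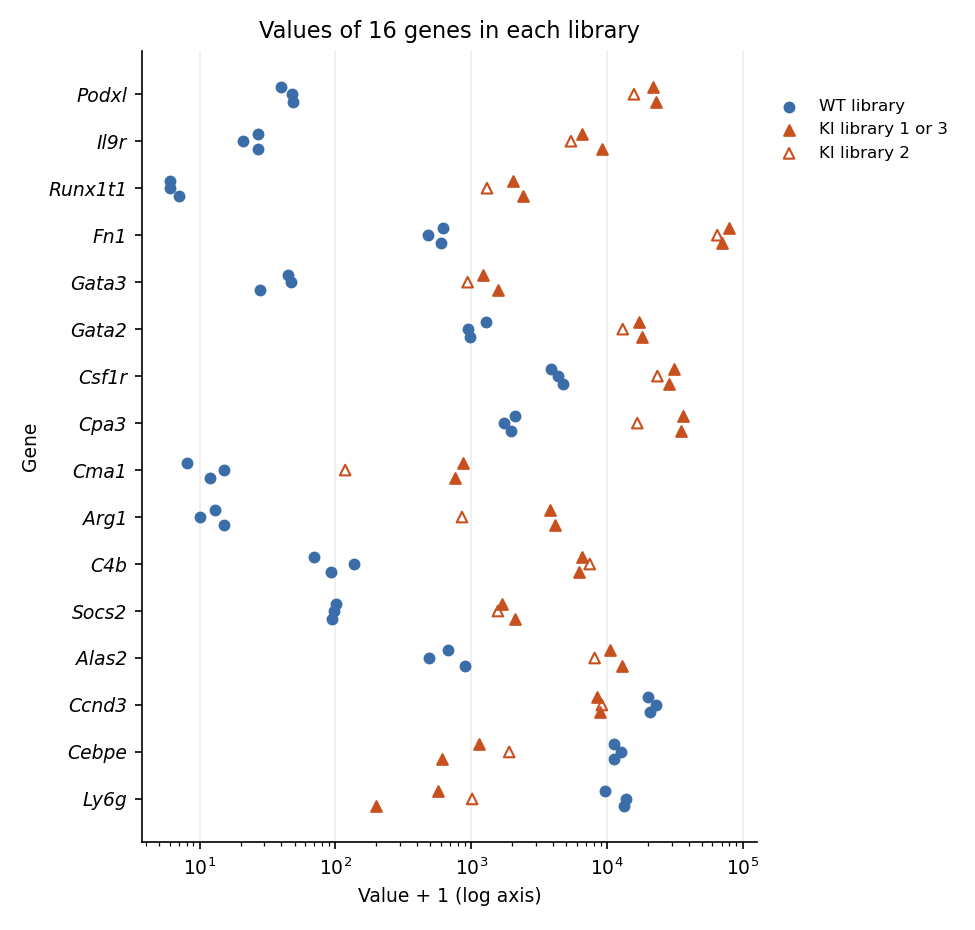
Value plus 1 on a log axis for 16 genes in each of the 3 WT libraries (circles) and 3 KI libraries (triangles). The points of the groups do not overlap for any of the 16 genes, nor do they for 67.6% of all genes tested. KI library 2 lies below the other KI libraries for most of the 16, among them Cma1, Arg1 and Cpa3.

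JAK kinases transmit cytokine signals to STAT factors, whose targets include the SOCS proteins that end the signal. Of 24 genes of this pathway 15 rose and 3 fell (median log2 0.48). Socs2, a target of STAT5, had WT values of 100, 97 and 93 and KI values of 1682, 1573 and 2091 (log2 fold change 4.18, SE 0.16, adjusted p = 2.12e-07). Cish, another STAT5 target, had WT values of 96, 180 and 141 and KI values of 1381, 1080 and 1965 (log2 fold change 3.40, SE 0.29, adjusted p = 1.21e-05). Socs3, Socs1 and the kinase gene Pim1 rose by 2.96, 2.38 and 1.89. Each KI library exceeded each WT library for all 3, as in 35.9% of all genes. The kinase and STAT genes changed less: Jak2, Stat5a and Stat5b rose by 0.52, 0.57 and 0.43, Jak1 and Stat6 did not pass as deposited (but did by column total, at 0.20 and 0.23), and Stat4 fell by 1.55.

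Mast cells store proteases, histamine and heparin in granules and release them when IgE on their high-affinity receptor is cross-linked. The summed value of 6 mast cell markers was 3027 to 3639 in WT and 50167 to 87542 in KI, and how far this reflects cell numbers was not tested. Without Mcpt4, Cma1 or Tpsb2 the lowest KI sum was 50157, 50050 or 50164. The sum thus rested mainly on Cpa3, Fcer1a and Ms4a2, and Fcer1a is among the basophil markers as well. Of 3 basophil markers, Fcer1a, which mast cells share, rose and Mcpt8 and Prss34 fell, and the sum of the latter 2 was 8238 to 9802 in WT and 1607 to 1714 in KI. Of 9 tested protease genes of mast cells and basophils 7 rose and 2 fell (median log2 3.84). Cpa3, carboxypeptidase A3 of mast cell granules, had WT values of 2116, 1748 and 1977 and KI values of 36280, 16751 and 35331 (log2 fold change 3.84, SE 0.29, adjusted p = 6.23e-06). KI library 2 was the lowest of its group, still 7.92 times the highest WT library. The chymase gene Cma1 showed the same order more strongly, with WT values of 7, 14 and 11 and KI values of 868, 117 and 756 (log2 fold change 5.24, SE 0.67, adjusted p = 0.000134). Tpsb2, a tryptase, had WT values of 2, 1 and 1 and KI values of 44, 3 and 68, close to the WT level in KI library 2, and its call was lost with limma-voom (adjusted p = 0.0560). Tpsab1, another tryptase of mast cells, was listed at 0 in all 6 libraries. Gzmb, a granzyme, rose by 1.44. The members that fell mark basophils, Mcpt8 and Prss34 (-1.96 and -2.83). Several of these proteases, including Mcpt1 and Mcpt2, are near copies, between which reads could be divided.

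The IgE receptor and the amine genes were split as well. Fcer1a, the IgE-binding chain of the high-affinity receptor, had WT values of 490, 413 and 550 and KI values of 20279, 11326 and 18695 (log2 fold change 5.08, SE 0.30, adjusted p = 1.71e-06). Ms4a2, its beta chain, rose by 4.87, whereas Fcer1g, a signalling chain shared by many receptors, fell by 0.68. Ddc, which makes serotonin and dopamine from their precursors, had WT values of 19, 21 and 18 and KI values of 3411, 2593 and 4415 (log2 fold change 7.39, SE 0.49, adjusted p = 2.92e-06). Slc18a2, the transporter that loads amines into granules, had WT values of 482, 464 and 507 and KI values of 5288, 4190 and 6446 (log2 fold change 3.43, SE 0.16, adjusted p = 4.59e-07). Hdc, the enzyme that makes histamine, fell by 0.58, and Hnmt, which degrades it, by 1.94. Of 9 eosinophil genes tested 5 fell and 1 rose (median log2 -2.47), and the sum of 3 eosinophil markers (Epx and Prg2, which fell, and Siglecf) was 18946 to 38729 in WT and 6857 to 8128 in KI. Without Prg2 the sum was 4916 to 9853 in WT and 4524 to 5269 in KI, with overlap. Prg2, the major basic protein, had WT values of 20125, 14030 and 28876 and KI values of 2859, 2333 and 1789 (log2 fold change -3.14, SE 0.44, adjusted p = 0.000239), and Siglecf, a surface lectin of eosinophils, rose by 1.72. The cytokine genes Il4 and Il13 of type 2 responses were also higher in KI. Il4 had WT values of 25, 33 and 38 and KI values of 442, 369 and 575 (log2 fold change 3.81, SE 0.25, adjusted p = 2.55e-06), and Il13, listed at 0 in all WT libraries, had KI values of 241, 177 and 300 (adjusted p = 4.58e-07 with limma).

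The 250 bases before the transcription start of 4 of these genes are printed because the genes rose together and because GATA and RUNX factors, whose genes changed or which the fusion binds, have short known recognition sequences. They are from RefSeq (GRCm38.p6), on the strand of the gene, with matches on either strand in capitals. The motif AGATAA is known for GATA proteins, TGTGGT is known for RUNX proteins, and no matches overlapped. The genes were chosen after their values had been seen. Ms4a2 lies on chr19:11623720-11623969 (minus strand), Fcer1a on chr1:173227230-173227479 (minus), Cpa3 on chr3:20242182-20242431 (minus) and Il9r on chr11:32200280-32200529 (minus).
Ms4a2: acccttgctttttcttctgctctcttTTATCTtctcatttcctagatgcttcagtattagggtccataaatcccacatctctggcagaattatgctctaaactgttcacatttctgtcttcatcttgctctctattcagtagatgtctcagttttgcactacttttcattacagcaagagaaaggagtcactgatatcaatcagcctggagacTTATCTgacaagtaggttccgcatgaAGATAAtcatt
Fcer1a: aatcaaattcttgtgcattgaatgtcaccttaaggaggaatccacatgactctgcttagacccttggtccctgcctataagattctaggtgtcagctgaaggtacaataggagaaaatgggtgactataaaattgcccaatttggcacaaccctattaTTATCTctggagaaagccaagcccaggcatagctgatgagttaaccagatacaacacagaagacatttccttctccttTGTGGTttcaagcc
Cpa3: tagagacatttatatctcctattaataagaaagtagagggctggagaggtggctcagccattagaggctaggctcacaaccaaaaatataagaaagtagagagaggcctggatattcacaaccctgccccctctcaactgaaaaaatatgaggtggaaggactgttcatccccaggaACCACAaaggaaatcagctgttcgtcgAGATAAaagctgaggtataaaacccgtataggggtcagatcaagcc
Il9r: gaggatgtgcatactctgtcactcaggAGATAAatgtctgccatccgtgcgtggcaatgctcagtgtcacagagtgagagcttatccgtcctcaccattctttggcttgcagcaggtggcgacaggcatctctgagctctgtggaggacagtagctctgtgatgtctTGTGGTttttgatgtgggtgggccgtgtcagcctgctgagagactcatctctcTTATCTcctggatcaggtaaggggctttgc
Each of the 4 windows held AGATAA at least once, 3 times in Ms4a2 and 2 times in Il9r, and 3 of the 4 held TGTGGT once. The windows before Gata2 (2 starts) and before the fallen genes Mpo, Elane and Fcnb held neither. AGATAA was in 9.99% of all 32851 promoters of the table, 6.36% of the 13844 of tested genes, 8.04% of the 2101 of genes that rose at least 2-fold and 8.37% of the 1206 of genes that fell at least 2-fold. The shares with TGTGGT over the same sets were 14%, 11.5%, 12.7% and 14.3%. A match is a description of the letters and does not show that a factor binds there.

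Neutrophil granule genes fell in nearly all cases, with a median farther from 0 for the late than for the early granules. Neutrophils make primary granules as promyelocytes and secondary and tertiary granules later, so these genes order the stages of maturation. Of 10 primary granule genes 9 fell and none rose (median log2 -1.61), and of 20 late genes all 20 fell (median -3.10), against 27.2% of all genes. Mpo, myeloperoxidase of primary granules, had WT values of 218566, 189519 and 232841 and KI values of 92604, 124100 and 106779 (log2 fold change -0.99, SE 0.17, adjusted p = 0.000932), and its log2 fold change turned to 0.0924 with quantile normalisation. Ctsg, cathepsin G of the same granules, had WT values of 34080, 27171 and 34166 and KI values of 23017, 33963 and 24582, overlapped between the groups and did not pass (log2 fold change -0.24, SE 0.17, adjusted p = 0.258), but was called lower without KI library 2 (log2 -0.41, adjusted p = 0.0474). Serpinb1a, an inhibitor of these proteases, fell by 2.39 and Ms4a3, a marker of granulocyte and monocyte progenitors, by 2.65. Among the late genes, Ltf, lactoferrin, had WT values of 611916, 820682 and 816314 and KI values of 81395, 166709 and 34027 (log2 fold change -3.27, SE 0.47, adjusted p = 0.000270). Ly6g, the surface protein used to identify neutrophils, had WT values of 9722, 13928 and 13427 and KI values of 572, 1016 and 199 (log2 fold change -4.64, SE 0.48, adjusted p = 3.68e-05). The KI libraries differed among themselves, with KI library 2 the highest and KI library 3 the lowest for both genes. The whole late list took 11.25%, 13.33% and 13.25% of the total in WT and 1.541%, 2.586% and 0.8696% in KI. KI library 2, with the highest late neutrophil share, had the lowest share of mast and basophil proteases (0.1028%, against 0.1479% and 0.1645%).

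**Figure D3:**
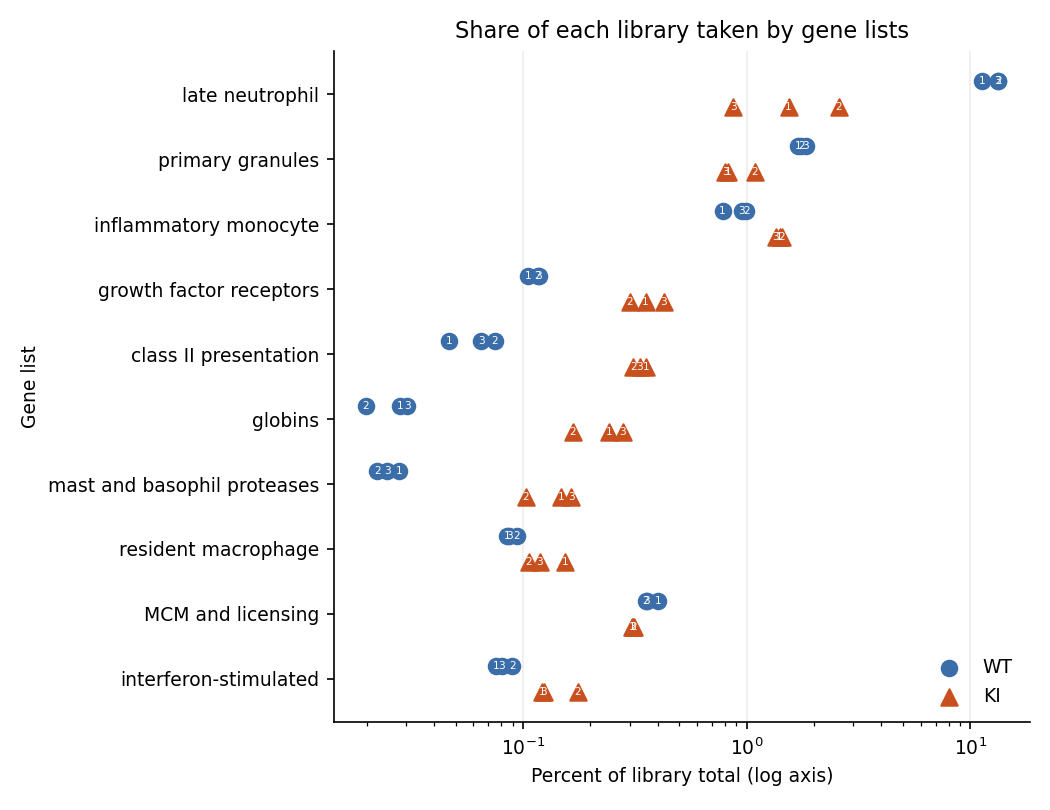
Share of the library total, in percent on a log axis, taken by the summed values of 10 gene lists in each WT (circles) and KI (triangles) library, labelled by library number. The late neutrophil genes took 11.25% to 13.33% in WT and 0.8696% to 2.586% in KI, and class II, globin and mast cell protease genes lay higher in each KI library than in each WT library.

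Monocyte and macrophage genes were mostly higher, and the sums of 4 monocyte markers (46040 to 49954 in WT, 161669 to 177403 in KI) and 4 macrophage markers (5381 to 8335 and 14831 to 26975) moved with them. Of 19 inflammatory monocyte genes 13 rose and 2 fell (median log2 2.56), against 31.8% and 27.2% of all genes. Ahnak, a large scaffold protein, and S100a4, a calcium-binding protein of motile cells, rose by 4.16 and 4.44, and Ccr2 and Ctss by 3.88 and 2.96. Ly6c2, which encodes the Ly6C antigen of these monocytes, had WT values of 29408, 31831 and 34556 and KI values of 33857, 41191 and 38255, with overlap, and did not pass (log2 fold change 0.24, SE 0.10, adjusted p = 0.0540). It did pass with limma-voom and with some other scalings (adjusted p = 0.0463 with limma-voom). The lysozyme gene Lyz2, shared by monocytes and granulocytes, fell (-1.12), and its direction turned to 0.46 with quantile normalisation. The chemokine receptor Cx3cr1 of the non-classical monocytes fell by 2.21. Of 15 genes of marrow resident macrophages 13 rose and 2 fell (median 1.01), and the latter were Vcam1 and the iron exporter Slc40a1 (-0.87 and -1.39). Mertk, a receptor for dying cells, and Cd68 rose by 2.30 and 2.14. The complement genes C1qa, C1qb and C1qc rose by 0.91, 1.01 and 0.96, with KI library 2 the lowest of its group and, for C1qa, within the WT range.

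Of 15 genes that IL-4 and IL-13 raise in macrophages 12 rose and 3 fell (median log2 3.00). Arg1, arginase 1, had WT values of 12, 9 and 14 and KI values of 3811, 855 and 4166 (log2 fold change 7.58, SE 0.61, adjusted p = 8.45e-06), with KI library 2 the lowest of its group. Clec10a, a lectin of these macrophages, had WT values of 181, 172 and 179 and KI values of 3439, 2166 and 3383 (log2 fold change 4.04, SE 0.18, adjusted p = 4.59e-07). Mrc1, the mannose receptor, rose by 2.37 and Cd209a, a dendritic cell lectin, by 3.44. Chil3, a chitinase-like protein that neutrophil precursors also make, Mgl2 and Alox15 fell (-1.0, -0.88 and -3.44), and Chil3 turned to 0.62 with quantile normalisation. Of 16 chemokine genes tested 10 rose and 1 fell (median 2.08), and the latter call was lost without WT library 2 or 3 or KI library 3, in the fit of 6 libraries and with limma-voom. Ccl8 had WT values of 32, 72 and 40 and KI values of 4931, 982 and 4147 (log2 fold change 5.88, SE 0.58, adjusted p = 2.71e-05), and Ccl9 and Ccl6 rose by 2.06 and 1.38. Cxcl12, the ligand that retains stem cells in the marrow, had WT values of 96, 91 and 76 and KI values of 1167, 772 and 1733 (log2 fold change 3.72, SE 0.52, adjusted p = 0.000230), while its receptor Cxcr4 fell by 1.27. The collagen genes Col1a1 and Col1a2 of stromal cells, a usual source of Cxcl12, fell (-2.94 and -2.86), the latter losing its call without WT library 3 or KI library 1 or 2 (adjusted p 0.06438 to 0.08211). With Lepr, which did not pass, these 2 genes summed to 293 to 583 in WT and 42 to 93 in KI.

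Genes of antigen presentation, pattern recognition and lysosomes were more often higher than lower. Class II molecules present peptides from engulfed material and are loaded with the help of the DM proteins. Of 14 class II genes 11 rose and 1 fell (median log2 1.84). H2-Aa, the alpha chain of a class II molecule, had WT values of 3168, 5694 and 5160 and KI values of 24917, 20986 and 21674 (log2 fold change 2.31, SE 0.27, adjusted p = 7.56e-05), and Ciita, the activator of these genes, rose by 3.93. Of 20 class I genes 12 rose and none fell (median 0.54), among them Nlrc5, their activator (1.66), H2-M3 (1.62) and H2-T23 (1.03), while B2m, the shared light chain, gave 0.00 (adjusted p = 0.986). Of 20 Toll-like receptor genes and adaptors 16 rose and 1 fell (median 0.90). Tlr9, a sensor of bacterial DNA, had WT values of 123, 202 and 187 and KI values of 1734, 1354 and 1325 (log2 fold change 3.12, SE 0.25, adjusted p = 7.58e-06). Tlr8, Tlr1 and Cd180 rose by 2.66, 2.03 and 2.23, and Tlr5, the flagellin receptor, was the 1 that fell (-1.24). Of 26 cathepsin and lysosome genes 15 rose and 4 fell, or 1 when scaled to the column total (median 0.40). Ctsc, which activates granule proteases, had WT values of 2658, 2891 and 2625 and KI values of 36195, 30249 and 36241 (log2 fold change 3.65, SE 0.11, adjusted p = 7.72e-08), and Ctse, an aspartic protease, fell by 2.42. Complement genes included C4b, with WT values of 69, 135 and 92 and KI values of 6556, 7475 and 6240 (log2 fold change 6.13, SE 0.23, adjusted p = 2.09e-07). C5ar1, the neutrophil receptor of C5a, fell by 3.19.

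**Figure D4:**
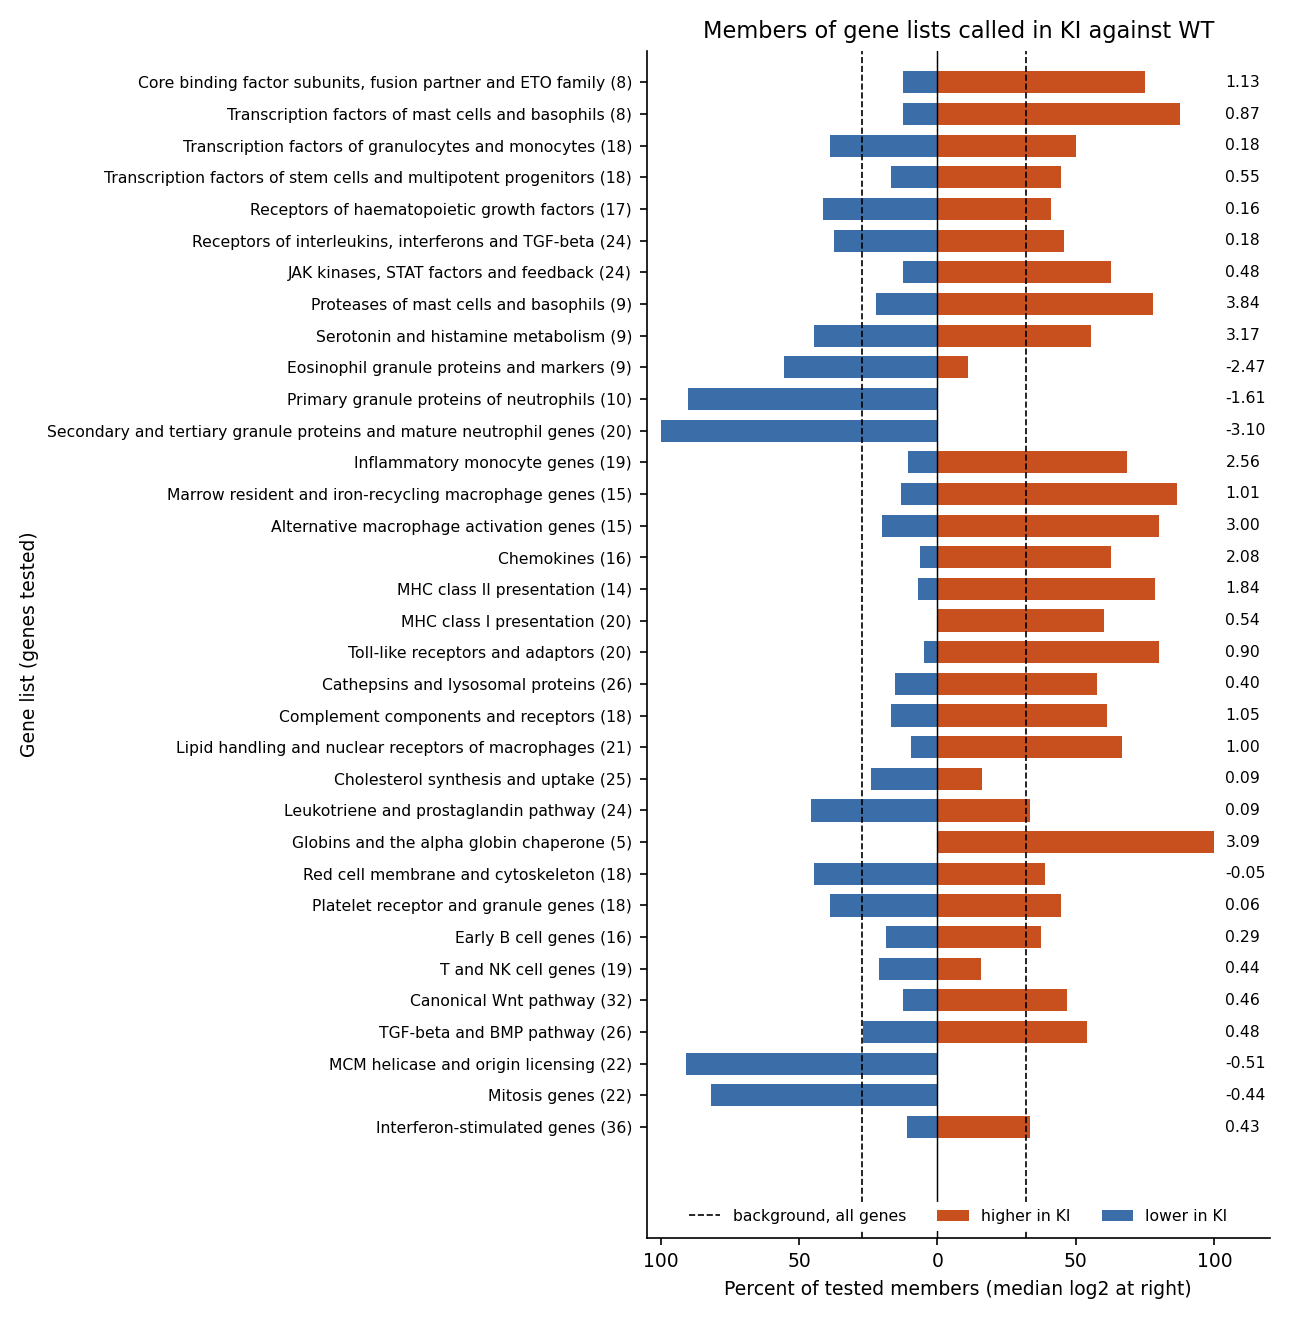
Percent of the tested members of 34 gene lists that were higher (right) or lower (left) in KI, with the number tested in brackets. Dashed lines mark the background over all genes, 31.8% higher and 27.2% lower, and the list median of the log2 fold change is printed at the right.

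Among lipid genes of macrophages more rose than fell. Of 21 tested 14 rose and 2 fell, or 1 without WT library 2 or 3 or KI library 1 or 3, by column total, without the trend, without the filter or with the replicate block (median log2 1.00). Abca1, which exports cholesterol, had WT values of 376, 483 and 393 and KI values of 3561, 1926 and 3808 (log2 fold change 2.83, SE 0.23, adjusted p = 8.01e-06). Msr1, a scavenger receptor, and Lpl, lipoprotein lipase, rose by 4.18 and 2.84. For cholesterol synthesis and uptake the counts depended on the scaling, with 4 of 25 higher and 6 lower as deposited and 11 higher and 3 lower by column total. The 6 became 3 without WT library 1 or 3 or KI library 3. In the leukotriene and prostaglandin pathway 8 of 24 rose and 11 fell, against 31.8% and 27.2% of all genes. Alox5, which starts leukotriene synthesis, rose by 1.15, whereas Lta4h, which makes the neutrophil attractant leukotriene B4, and its receptor Ltb4r1 fell by 2.08 and 2.61. Cysltr1, a receptor of the cysteinyl leukotrienes, had WT values of 58, 58 and 80 and KI values of 938, 741 and 824 (log2 fold change 3.66, SE 0.17, adjusted p = 4.72e-07).

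Globin genes rose, and the other red cell genes were split. All 5 globin genes tested rose (median log2 3.09), and the sum of 4 erythroid markers, of which 2, the globin genes Hba-a1 and Hbb-bs, rose and 1 fell, was 13786 to 18277 in WT and 62153 to 99325 in KI. Hba-a1, an alpha globin, had WT values of 5084, 4020 and 5558 and KI values of 44007, 30916 and 51271 (log2 fold change 3.09, SE 0.43, adjusted p = 0.000222). Alas2, the first enzyme of heme synthesis in red cells, had WT values of 671, 489 and 900 and KI values of 10569, 8124 and 12878 (log2 fold change 3.96, SE 0.53, adjusted p = 0.000192), while Alas1, its counterpart in other cells, fell by 0.95. Of all 16 genes of heme synthesis and iron uptake 5 rose, or 8 by column total, and 7 fell (median log2 0.07). Of all genes 31.8% rose and 27.2% fell. Of 18 membrane and cytoskeleton genes 7 rose and 8 fell. Sptb, beta spectrin, had WT values of 5414, 5157 and 5475 and KI values of 12455, 10411 and 12841 (log2 fold change 1.15, SE 0.16, adjusted p = 0.000198), without overlap between the groups. Add2, beta adducin, and Aqp1 fell by 3.17 and 3.31, and Tmod1, an actin cap of the red cell, rose by 3.82. Klf1, the main activator of globin genes, gave -0.05 (adjusted p = 0.790).

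Platelet genes were divided, with 8 of 18 higher and 7 lower (4 lower by column total), and of 3 megakaryocyte markers Itga2b, the platelet integrin chain, rose and Pf4 and Gp9 fell. Gp1ba and Gp5, chains of the von Willebrand factor receptor, rose by 3.65 and 2.56, while Gp9 and Gp1bb, the other chains of the same receptor, fell by 1.77 and 2.16. Gp1ba had WT values of 167, 159 and 176 and KI values of 2296, 1521 and 2688, without overlap. Pf4, a chemokine of platelet granules, and Vwf fell by 2.71 and 1.67, and Tubb1, a tubulin of platelets, rose by 5.16. Of 16 early B cell genes 6 rose and 3 fell, near the background of 31.8% and 27.2% of all genes, and the whole list took 0.1512% to 0.1562% of the total in WT and 0.07804% to 0.1059% in KI. The genes that fell were Cd24a, a surface protein also of other immature cells, Cd72 and Spib (-2.02, -2.20 and -0.60), the last losing its call without WT library 1 or 2 or KI library 1 or 3 (adjusted p 0.05283 to 0.09588) and by column total (0.1533). Rag1, a recombinase of antigen receptor genes, had WT values of 461, 405 and 261 and KI values of 1513, 2755 and 2701 (log2 fold change 2.61, SE 0.40, adjusted p = 0.000433), and Blnk, an adaptor of the B cell receptor, rose by 2.83. The surface gene Cd79a gave -0.51 and did not pass, but was called lower in the fit of the 6 WT and KI libraries and without KI library 2 (adjusted p = 0.0340 and 0.0481). Of 19 T and NK cell genes 3 rose (5 without WT library 2) and 4 fell (7 without KI library 2). Of all genes 31.8% rose and 27.2% fell. Among the T and NK cell genes Ncr1, a receptor of NK cells, fell by 3.64.

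In the Wnt, TGF-beta and BMP pathways more genes rose than fell. Wnt ligands stabilise beta-catenin, which activates target genes with TCF factors, and several targets are feedback inhibitors. Of 32 Wnt pathway genes tested 15 rose, 4 fell and 13 did not pass (median log2 0.46), and the 4 became 2 with any 1 WT library left out, by column total or with the replicate block. Axin2, a feedback target, had WT values of 27, 36 and 70 and KI values of 344, 206 and 363 (log2 fold change 2.82, SE 0.35, adjusted p = 0.000120). Nkd1 and Rnf43, further feedback inhibitors, and Tcf7l2, a TCF factor, rose by 3.02, 1.13 and 2.05. Porcn, which modifies Wnt ligands for secretion, rose by 2.59, and Wls, which carries them to the surface, fell by 0.59. In the TGF-beta and BMP pathway 14 of 26 rose and 7 fell (median 0.48). Acvr1, a BMP receptor, had WT values of 67, 56 and 58 and KI values of 410, 373 and 401 (log2 fold change 2.69, SE 0.13, adjusted p = 5.44e-07), and Smad1 rose by 1.77. Bmpr1a, another BMP receptor, and Inhba, the subunit of activin A, fell by 3.38 and 2.52.

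Genes of cell division were lower by small amounts. Of 22 genes of the MCM helicase and of origin licensing 20 fell and none rose (median log2 -0.51, or -0.28 when scaled to the column total). Mcm5 had WT values of 19392, 18621 and 19012 and KI values of 12599, 12536 and 12129 (log2 fold change -0.61, SE 0.06, adjusted p = 1.82e-05). Of 22 mitosis genes 18 fell and none rose (median -0.44). By column total 11 fell and 2 rose (median -0.21). Mki67, the proliferation marker Ki-67, and Top2a, a topoisomerase of dividing cells, gave 0.08 and -0.05 and did not pass, though Mki67 was called higher by column total and with quantile normalisation (0.31 in both, adjusted p = 0.0271 and 0.0390). Cyclin D genes changed in opposite directions. Ccnd2 had WT values of 3221, 3055 and 3067 and KI values of 11978, 9961 and 11774 (log2 fold change 1.85, SE 0.08, adjusted p = 3.81e-07), while Ccnd3 had WT values of 20164, 23106 and 20843 and KI values of 8480, 9181 and 8844 (log2 fold change -1.27, SE 0.08, adjusted p = 2.56e-06). The inhibitor genes Cdkn1a and Cdkn1b rose by 2.28 and 0.68, and Cdkn2a had WT values of 2, 2 and 1 and KI values of 42, 30 and 35 (log2 fold change 3.79, SE 0.32, adjusted p = 1.02e-05). Cdc25a, which activates cyclin-dependent kinases, fell by 1.44. Of 19 BCL2 family genes 9 rose and 1 fell, or none without any 1 WT library or KI library 3 (median 0.46), and the risen genes held both inducers of apoptosis (Bmf, Bbc3 and Bcl2l11, at 2.42, 2.47 and 1.39) and inhibitors (Bcl2l1 and Mcl1, at 0.76 and 0.46).

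Interferon genes were examined because pIpC had been given to both groups. Of 36 tested 12 rose and 4 fell, and 20 did not pass (median log2 0.43). The share that rose was near the 31.8% of all genes, and the share that fell was below their 27.2%. All KI libraries lay above all WT libraries in 21 of the 36 and below them in 5, against 35.9% and 31.8% of all genes. The 4 became 2 without WT library 2 or 3 or KI library 1 or 3 and without the trend, and 1 by column total. In a fit of the 6 WT and KI libraries alone 21 rose, so this count depends on whether the third group of the study enters the fit. Among the 12 were 7 genes of guanylate-binding proteins and IRG GTPases, which interferon gamma raises. Gbp2 had WT values of 370, 666 and 447 and KI values of 3095, 7165 and 4096 (log2 fold change 3.23, SE 0.34, adjusted p = 4.33e-05), and Iigp1 had WT values of 78, 198 and 86 and KI values of 619, 3027 and 1085 (log2 fold change 3.51, SE 0.63, adjusted p = 0.00109). KI library 2 was the highest for both. Isg15, Ifit1, Irf7 and Rsad2, which answer to type I interferon, gave 0.67, 0.85, 0.37 and -0.54 and did not pass, though Isg15 and Ifit1 did in the fit of 6 libraries (adjusted p = 0.00441 and 0.0240). The largest rise of the interferon list was that of Mx1, whose promoter answers to interferon and drives Cre in the KI group. Mx1 had WT values of 43, 61 and 63 and KI values of 588, 860 and 662 (log2 fold change 3.64, SE 0.37, adjusted p = 3.16e-05). Chromatin genes changed in both directions. Of 16 DNA methylation and TET genes 8 rose and 2 fell (1 by column total), and of 10 CHD remodellers 6 rose and 2 fell. Of 17 histone deacetylases 6 rose and 7 fell (4 by column total), against 31.8% and 27.2% of all genes. Of 29 Polycomb genes 8 rose and 10 fell (13 and 2 by column total), against 31.8% and 27.2% of all genes. The largest rises in their lists were those of the demethylase gene Tet2 (1.32), the remodeller gene Chd3 (2.04) and the deacetylase gene Hdac11 (2.14). Ezh2, the Polycomb methyltransferase, gave -0.13 and did not pass, though it did with upper-quartile factors (adjusted p = 0.02002).

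Retinoid genes contained deep losses, in enzymes that make retinoic acid or are related to those that do. Aldh1a1 and Aldh1a7 gave log2 fold changes of -6.18 and -6.98, and these genes are near copies. The receptor genes Rxra and Rarg rose by 1.86 and 1.66, and Rxrg, a retinoid receptor of muscle and brain, had WT values of 2, 2 and 1 and KI values of 88, 43 and 89 (log2 fold change 4.75, SE 0.50, adjusted p = 3.88e-05). In all, 7 of 15 rose and 5 fell. Among progenitor surface genes Podxl (chromosome 6, 31519488 to 31563981), podocalyxin, a sialomucin of stem cells and podocytes related to Cd34, had WT values of 39, 47 and 48 and KI values of 21718, 15831 and 23009 (log2 fold change 8.78, SE 0.43, adjusted p = 5.95e-07). The lowest KI library was 330 times the highest WT library. Cd34 itself had WT values of 3342, 2274 and 2333 and KI values of 3138, 3705 and 4226, with overlap between the groups (log2 fold change 0.49, SE 0.19, adjusted p = 0.0489), and its call was lost without WT library 2 or 3 or KI library 2 or 3 (adjusted p 0.09808 to 0.1542). The integrin genes Itgb7 and Itga4, whose products pair to home to the gut, rose by 3.25 and 1.01, while Itgam and Itgb2, the 2 chains of the neutrophil and monocyte integrin CD11b/CD18, fell by 1.71 and 1.69.

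Some genes were near 0 in 1 group only. In 48 genes, 46 of them protein-coding, the value was at most 10 in every WT library and at least 100 in every KI library, and 8 genes showed the reverse. This pattern was defined on the values, so its counts are a description with no test. Myh11, the fusion partner in the KI allele, was among the 48. The other genes named here were picked from the 48 after their values had been seen. Pax6, a factor of eye and brain development, had WT values of 3, 2 and 0 and KI values of 381, 193 and 284, Grhl2, a factor of epithelia, had WT values of 1, 0 and 1 and KI values of 270, 217 and 209, and Gcm2, the factor of the parathyroid gland, had WT values of 2, 0 and 0 and KI values of 266, 191 and 500. Cldn3, a tight junction claudin, had WT values of 0, 0 and 0 and KI values of 339, 144 and 386, and Pkp1, a desmosomal plakophilin, had WT values of 1, 1 and 0 and KI values of 460, 251 and 480. KI library 2 was the lowest of its group for 43 of the 48 genes. Nog, an inhibitor of BMP ligands, listed at 0 in all WT libraries, had KI values of 150, 144 and 292, and Bmp4, a BMP ligand, had WT values of 7, 0 and 2 and KI values of 174, 113 and 198. Hrh4, the histamine receptor of mast cells and eosinophils, had WT values of 5, 5 and 5 and KI values of 322, 195 and 377, and Etv1, an ETS factor that RAS signalling activates, had WT values of 6, 4 and 4 and KI values of 294, 213 and 296. The 8 genes with the reverse pattern included Acsl6, a fatty acid ligase of red cells, with WT values of 411, 378 and 307 and KI values of 3, 9 and 1, and Spon2, a secreted matrix protein, with WT values of 407, 345 and 343 and KI values of 3, 6 and 4.

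**Figure D5:**
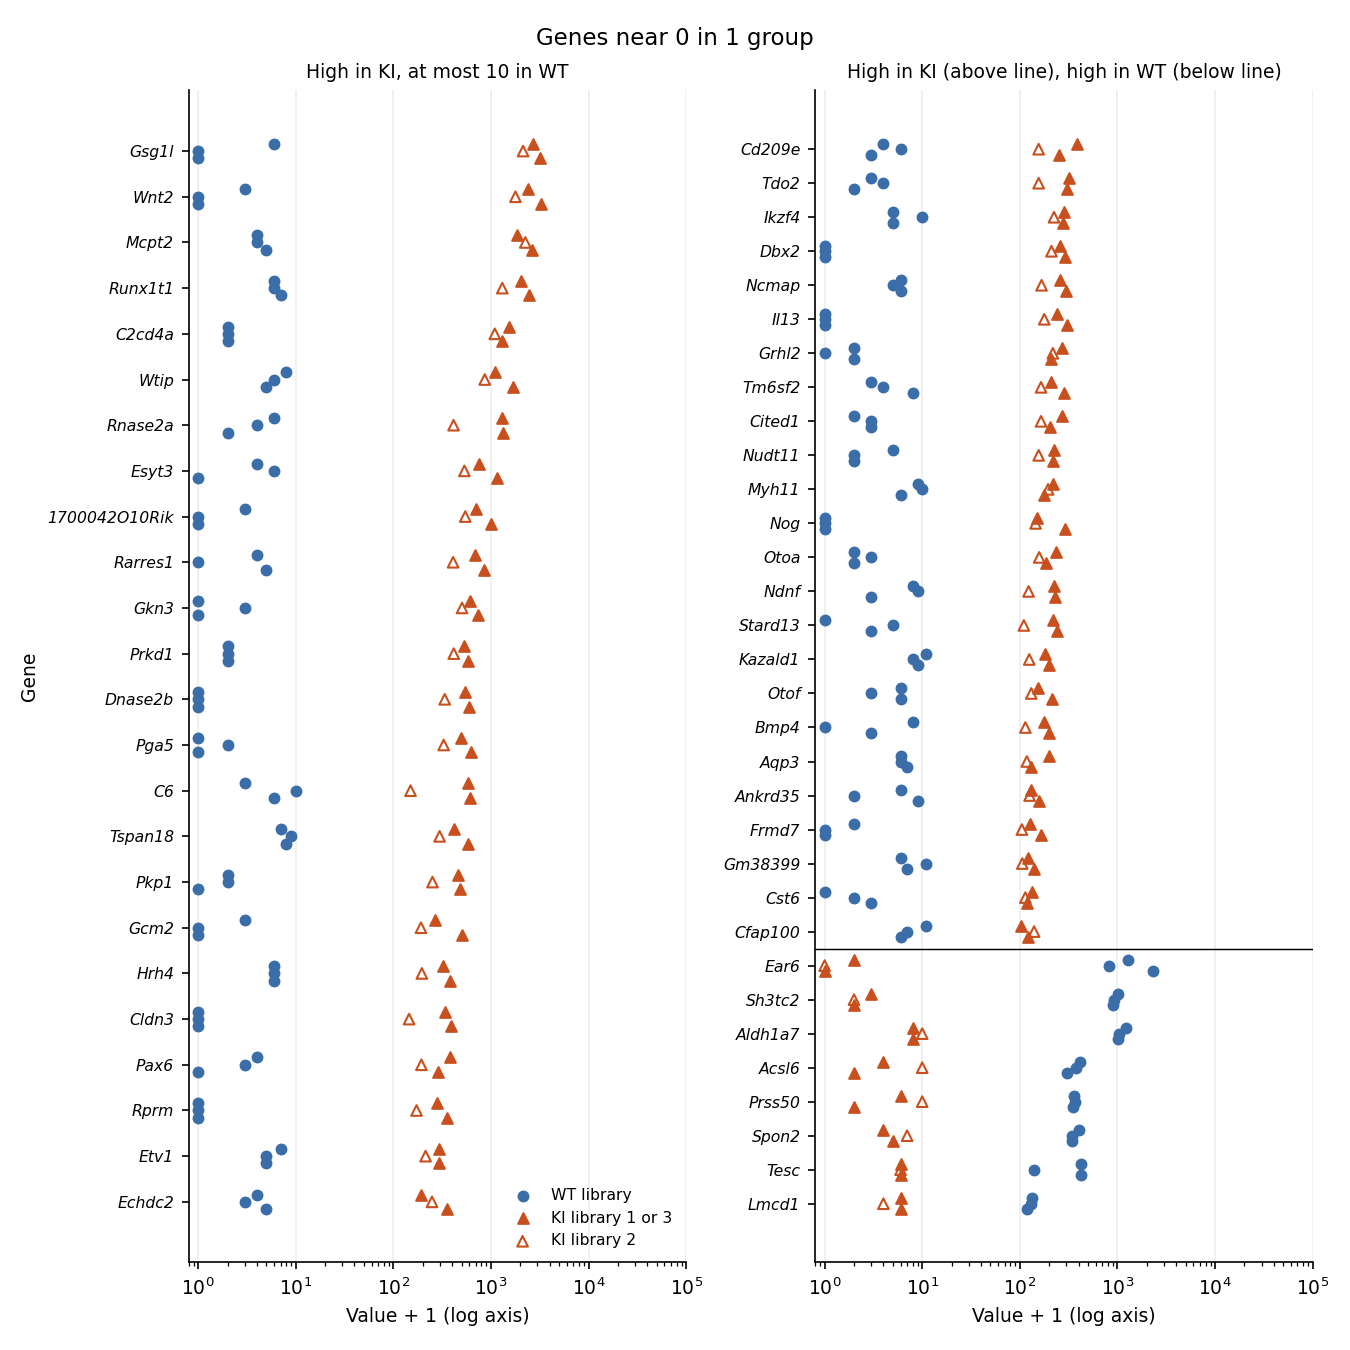
Value plus 1 on a log axis in each WT (circles) and KI (triangles) library for the 48 genes at most 10 in every WT library and at least 100 in every KI library and the 8 genes with the reverse pattern. KI library 2 (open triangles) is the lowest KI library for 43 of the 48 genes.

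Some abundant genes differed little between the groups. Of 545 genes with a mean of at least 10000 in both groups, 258 did not pass the test. The smallest differences were those of Acin1, a splicing and apoptosis factor, the ribosomal protein genes Rps26 and Rpl32, Cd47, a signal against engulfment, and Wnk1, a kinase of ion transport. Acin1 had WT values of 9847, 10681 and 10019 and KI values of 9862, 10431 and 10241 (95% interval of the log2 fold change -0.12 to 0.12). Cd47 had WT values of 13056, 12962 and 13796 and KI values of 13444, 13378 and 12935 (95% interval -0.12 to 0.12). Scaled to the column total, Acin1, Cd47 and Wnk1 moved to 0.23 each and passed the test.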

How the data were processed

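RNA of c-KIT-selected marrow was sequenced in 9 libraries of 3 groups, of which 6 (WT and KI) are compared here. The submitters' processing notes name CASAVA 1.8.2, STAR 2.4, RSEM, DESeq2 and the build GRCm38, without their order or role. The authors deposited 1 table of 43629 gene identifiers, and its values are treated as a score: whole numbers whose gaps at low values show scaling and rounding, so that no count model was used and the sequencing depth is not known beyond the column totals. Symbols, positions and exon lengths were taken from GENCODE M21 (GRCm38), which matched 42462 identifiers. Promoters were taken from RefSeq (GRCm38.p6), which matched 10897 of 15996 tested symbols.

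Genes reaching a value of 10 in 3 or more of the 9 libraries were tested with limma 3.58.1 (R 4.3.3) on log2(value + 1), with a mean-variance trend, the 3 groups in 1 fit and the contrast KI minus WT. The tests were two-sided, with Benjamini-Hochberg adjustment over all 15997 genes and a threshold of 0.05. Fold changes on the log2(value + 1) scale understate the change of low genes. The procedure was first run on simulated data with few changed genes, as many raised as lowered. Those data held no wide difference between groups like the one found here, so the run does not test the scaling. The gene lists (65 lists, 1127 of 1131 genes matched) and the comparison were chosen with earlier results of these data known. Named by rule were the 15 genes per direction with the largest difference in value, the 10 with the largest fold among genes with a mean of at least 500 in both groups, the 5 abundant genes with the smallest change, the 5 members of each list with the smallest adjusted p and all members of 6 lists of transcription factors and receptors. Another 82 genes were named after their values had been seen. Some genes are not reported here. Near-identical copies (the Csf2rb, globin, Ms4a, Ear, Mcpt, Gbp, H2 and Aldh1a families) could share reads in counting, and their separate values are uncertain. Alternatives were other scalings, filters, pseudocounts and fits, and each library left out in turn. The third group entered the fit for its spread only and is not described here.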

Additional observations from a re-analysis of the deposited data

How the results depend on the processing

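Over the alternatives, 8095 to 9847 genes were called, except that a test against a 1.5-fold change called 3239 (2059 higher and 1180 lower). With 1 library left out the counts were 8095 to 8694 called, 4344 to 4702 higher and 3741 to 4072 lower. Scaling to the column total left 2506 genes lower. The share of calls that were higher was 53.92% as deposited, 74.17% by column total, 45.02% with upper-quartile factors and 44.91% with quantile normalisation, and 2 genes were called in the opposite direction under column total and 2 under quantile normalisation. Of the named genes, log2 fold changes turned for Acin1 (0.23), Cd47 (0.23), Jak1 (0.20), Stat6 (0.23) and Lyl1 (0.21) by column total, and for Actb (0.81), Chil3 (0.62), Lyz2 (0.46) and Mpo (0.0924) with quantile normalisation. The cause was not tested.

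The labels do not say whether replicate numbers pair the libraries. Deviations from the group mean correlated at -0.01, 0.11 and -0.15 for same-numbered WT and KI libraries. For other-numbered ones the correlations were -0.17 to 0.21. These few correlations cannot decide whether the libraries were paired. With the replicate block 9121 genes were called, 8950 of them as without it. Values of low genes rest on few reads, and the median standard error of the log2 fold change was 0.37 for genes with a mean under 30 and 0.0654 for those between 3000 and 10000.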

Other observations

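Of 19 AP-1 and other immediate early genes tested, 6 rose and 4 fell, against 31.8% and 27.2% of all genes. The share that rose was thus near the background. Cells switch on these genes within minutes of a stimulus, and a few varied widely among the WT libraries. Fos, a subunit of the AP-1 factor, had WT values of 420, 2910 and 6247 and KI values of 1232, 1054 and 842, and Jun, its partner, had WT values of 148, 1045 and 2593 and KI values of 812, 471 and 812. Neither passed the test (adjusted p = 0.378 and 0.914 with limma), but without WT library 1 Fos was called lower (log2 -2.05, adjusted p = 0.0124). WT library 1 was the lowest and WT library 3 the highest for both, and likewise for Egr1, another early factor, and for Dusp1, a phosphatase that ends MAP kinase signals (WT values of 395, 1156 and 2464 and KI values of 369, 270 and 274). Dusp1 was called lower in KI (log2 fold change -1.78, SE 0.65, adjusted p = 0.0387), a call lost without WT library 2 or 3 or any 1 KI library (adjusted p 0.06262 to 0.133), by column total, without the trend and with limma-voom (0.05393, 0.06385 and 0.1149). Atf3, a stress factor, had WT values of 21, 26 and 56 and KI values of 731, 647 and 930 (log2 fold change 4.56, SE 0.33, adjusted p = 4.72e-06), and Nr4a3, an orphan nuclear receptor, had WT values of 19, 33 and 31 and KI values of 340, 203 and 548 (log2 fold change 3.59, SE 0.35, adjusted p = 2.57e-05), without overlap in either.

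Feedback genes of the RAS-ERK pathway changed in both directions. Of 20 tested 10 rose and 5 fell (median log2 0.48). Dusp3 had WT values of 179, 145 and 162 and KI values of 2029, 1494 and 2109 (log2 fold change 3.52, SE 0.13, adjusted p = 2.12e-07), while Dusp6, the phosphatase of ERK, fell by 1.32 on the log2 scale. Spry1, a feedback inhibitor of receptor kinases, had WT values of 50, 45 and 40 and KI values of 193, 161 and 283 (log2 fold change 2.18, SE 0.37, adjusted p = 0.000853), and its relative Spry4 had WT values of 49, 52 and 25 and KI values of 2, 3 and 5 (log2 fold change -3.30, SE 0.58, adjusted p = 0.00101).

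The MS4A genes, a cluster of membrane proteins of leukocytes with near-identical copies, were higher in 9 of 12 tested and lower in 2 (median log2 2.60). Ms4a8a had WT values of 11, 13 and 25 and KI values of 1138, 1009 and 1039 (log2 fold change 6.02, SE 0.37, adjusted p = 1.86e-06). The members that fell were Ms4a1, the B cell antigen CD20, with WT values of 744, 993 and 769 and KI values of 56, 44 and 35 (log2 fold change -4.20, SE 0.64, adjusted p = 0.000391), and Ms4a3. Igf2r, the receptor that carries enzymes to lysosomes and takes up IGF2, and an imprinted gene, had WT values of 4366, 4905 and 5422 and KI values of 216, 350 and 191, without overlap (log2 fold change -4.32, SE 0.22, adjusted p = 7.58e-07). Most cathepsin and lysosome genes rose, as described above. Among receptors of IgG, Fcgr1, of high affinity, had WT values of 142, 245 and 176 and KI values of 3197, 3179 and 2965 (log2 fold change 4.08, SE 0.24, adjusted p = 1.69e-06), Fcgr2b, the inhibitory receptor, rose by 1.96, and Fcgr3 and Fcgr4 gave -0.12 and -0.20 and did not pass, though Fcgr4 did without WT library 1 (log2 -0.47, adjusted p = 0.00229).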
